A study of Rattus norvegicus with 8 samples.

Results

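The miR-29 family was followed in rat bone marrow mesenchymal stem cells (BMSCs), stromal cells grown out of marrow and able to become osteoblasts, chondrocytes or adipocytes, with and without dexamethasone, a synthetic glucocorticoid. Its members were the rows of the deposited miRNA table named rno-miR-29a, rno-miR-29b or rno-miR-29c with any locus number or arm, which gave 6 of 487 rows: the 3p and the 5p arm of each. Libraries came from 4 samples given 10 µM dexamethasone for 48 h and 4 control samples. The sources used here do not give the rats' strain, age or sex, the passage, or any vehicle for the controls. The labels do not call the replicates separate cultures, so a p-value here measures only the spread between these samples, which may be technical.

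Mature miRNAs guide Argonaute proteins to mRNAs that pair with the seed, the bases 2 to 8 at the 5′ end, and lower the output of those mRNAs. The miR-29 family is known for pairing with many extracellular matrix transcripts at once, among them fibrillar and basement membrane collagens, elastin and fibrillin, and transforming growth factor β lowers it in fibrotic tissue. In osteoblasts it is known for acting on collagens, on osteonectin and on inhibitors of Wnt signalling. In bulk RNA, fewer cells of a type and less RNA per cell cannot be told apart.

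The 3p arms are shown first because their letters decide both what they pair with and how well they can be counted apart. All 6 rows matched a RefSeq mature sequence (assembly GRCr8, while the files use mRatBN7.2). Capitals mark the seed.
rno-miR-29a-3p: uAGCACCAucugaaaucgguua
rno-miR-29b-3p: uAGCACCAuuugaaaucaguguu
rno-miR-29c-3p: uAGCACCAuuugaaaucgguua
The 3 share the seed AGCACCA, and no other of the 443 deposited rows with a RefSeq sequence carries it at bases 2 to 8 (3 rows, 0.677%). Counted from the 5′ end, miR-29a-3p and miR-29c-3p differ at 1 base, C10U. miR-29b-3p and miR-29c-3p differ at 3 of 22 compared bases (A18G, G21U and U22A), and miR-29b-3p is 23 bases long against 22 for the others. The sources used here do not say how reads fitting more than 1 member were counted, so single members are uncertain.

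RefSeq places the family in 4 genes. Mir29a and Mir29b1 lie on the minus strand of chromosome 4, and Mir29b2 and Mir29c on the plus strand of chromosome 13. Both Mir29b1 and Mir29b2 give the identical miR-29b-3p, so its count does not say which gene it came from. The 5p arms do differ between genes, as these 3, with bases 2 to 8 in capitals, show.
rno-miR-29a-5p: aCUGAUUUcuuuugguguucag
rno-miR-29b-5p: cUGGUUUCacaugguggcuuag
rno-miR-29c-5p: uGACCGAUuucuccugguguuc
In RefSeq, rno-miR-29b-5p belongs to Mir29b2. The 5p arm of Mir29b1 has a name of its own, which none of the member rows bears, so it was not analysed here. RefSeq also lists a mature miRNA on the opposite strand of 3 of the 4 genes, each lying wholly within the 3p arm it faces. They are shown because a count without strand could not tell them from miR-29.
rno-miR-3556a: cgauuucagauggugcua
rno-miR-3587: aacacugauuucaaauggugc
rno-miR-3556b: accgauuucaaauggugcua
They face miR-29a-3p over 18 bases, miR-29b-3p of Mir29b1 over 21 and miR-29c-3p over 20. The sources used here do not say whether the counting used strand. These 3 miRNAs have no row in the deposited miRNA table, so no counts were available for them.

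The libraries held 1377881 to 1521505 counts after dexamethasone and 1835256 to 2639007 in control, so every treated library was shallower and depth and treatment cannot be told apart. A count of 0 allowed 3 counts, or 1.14 to 2.18 CPM (counts scaled to a common library total) in a single library, which covers counting error only. Spearman correlations over all tested miRNAs between dexamethasone replicate 4 and the other treated libraries were 0.977 to 0.986, and among those 3 they were 0.984 to 0.990. Among the labelled cell type's markers, the summed level of 26 mesenchymal rows was 378664 to 406056 CPM after dexamethasone and 327455 to 341986 CPM in control, with 6 of 22 tested rows higher (27.3%) and 7 lower (31.8%), where 24.9% of all tested miRNAs were higher and 21.2% lower.

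The 2 abundant members, miR-29a-3p and miR-29b-3p, were higher after dexamethasone, and the scarce miR-29c-3p was not detectably so. rno-miR-29a-3p had 17799.7, 20339.7, 18844 and 15239 CPM in dexamethasone replicates 1 to 4, against 12117, 12157, 12809 and 13977 CPM in control replicates 1 to 4. Every treated library was above every control, with replicate 4 the lowest treated library. The means were 18056 ± 2148 CPM after dexamethasone and 12765 ± 868 CPM in control (SD, n = 4). edgeR's quasi-likelihood test put it 1.44-fold higher, a log2 fold change of 0.53 ± 0.08 (SE, Benjamini-Hochberg adjusted p = 1.49e-04 over 245 miRNAs). It stood 11th in abundance in each of the 8 libraries.

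rno-miR-29b-3p had 4426, 5029.9, 4759 and 5324 CPM in dexamethasone replicates 1 to 4, against 3532, 3651, 3928 and 3704 CPM in control replicates 1 to 4. The groups did not overlap here either, but replicate 4 was the highest treated library. The means were 4885 ± 383 CPM after dexamethasone and 3704 ± 166 CPM in control (SD, n = 4). It was 1.34-fold higher, with an edgeR log2 fold change of 0.43 ± 0.06 (SE, adjusted p = 7.68e-05). Its rank in abundance was 20 or 21 in treated libraries and 24 in all 4 controls.

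rno-miR-29c-3p had 119, 149.9, 115 and 91.4 CPM in dexamethasone replicates 1 to 4, against 90.6, 114, 132 and 121 CPM in control replicates 1 to 4. The groups overlapped, and replicate 4 was the lowest treated library. The means were 119 ± 24.0 CPM after dexamethasone and 114 ± 17.7 CPM in control (SD, n = 4), with an edgeR log2 fold change of 0.09 ± 0.15 (SE, adjusted p = 0.66). Without dexamethasone replicate 4 the log2 fold change was 0.23 (edgeR adjusted p = 0.199). It was -0.065 when libraries were scaled by their upper quartile (edgeR adjusted p = 0.761).

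**Figure D1:**
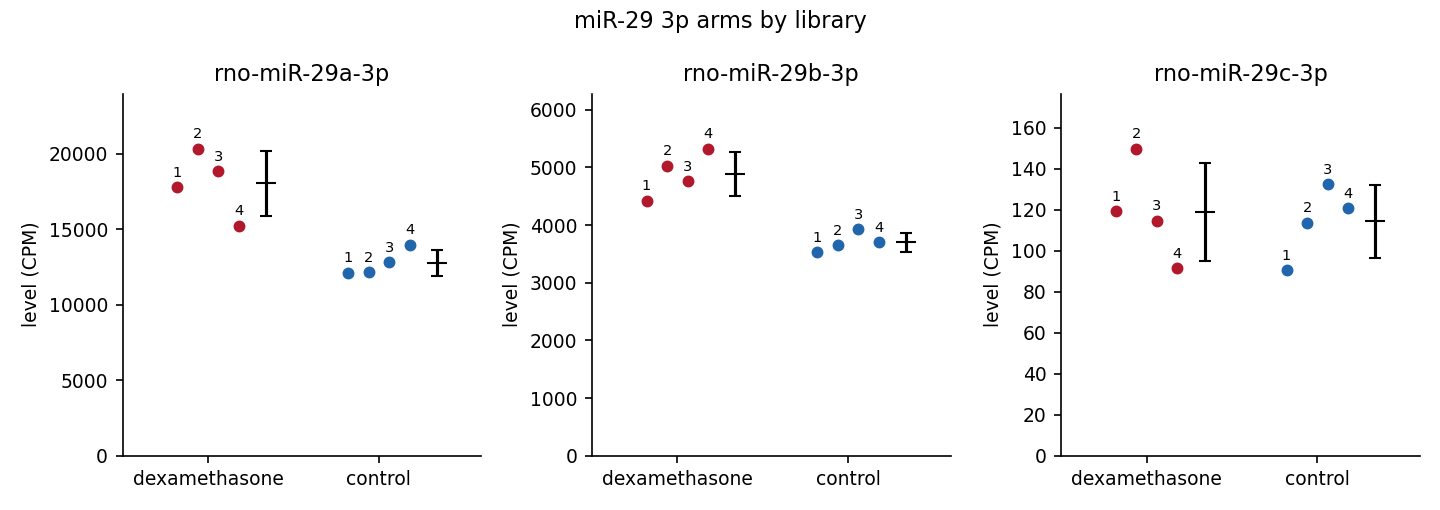
Level (CPM) of each miR-29 3p arm in the 4 dexamethasone libraries (red) and the 4 control libraries (blue), with replicate numbers above the points and mean ± SD as black bars. For miR-29a-3p and miR-29b-3p every treated library is above every control, while for miR-29c-3p the groups overlap.

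Of the 6 members, 3 passed the filter on low counts. Of those, 2 were higher and 0 lower at an adjusted p below 0.05, where 46.1% of all 245 tested miRNAs were called (24.9% higher and 21.2% lower). Groups did not overlap for the same 2, where 42% of tested miRNAs had groups that did not (21.6% with all treated libraries above all controls and 20.4% below). miR-29a-3p ranked 40th and miR-29b-3p 51st by log2 fold change, and miR-29c-3p ranked 107th of 245. The median log2 fold change over all tested miRNAs was 0.00 and the median of its absolute value 0.30. Upper quartile scaling moved the median of all tested miRNAs to -0.15 and put miR-29a-3p at 0.37 and miR-29b-3p at 0.27 (edgeR adjusted p = 0.00201 and 0.00635). The authors' deposited table gave miR-29a-3p, miR-29b-3p and miR-29c-3p log2 fold changes of 0.50, 0.40 and 0.05, with adjusted p-values of 2.62e-16, 1.26e-08 and 0.876. The sources used here do not name the test behind them.

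**Figure D2:**
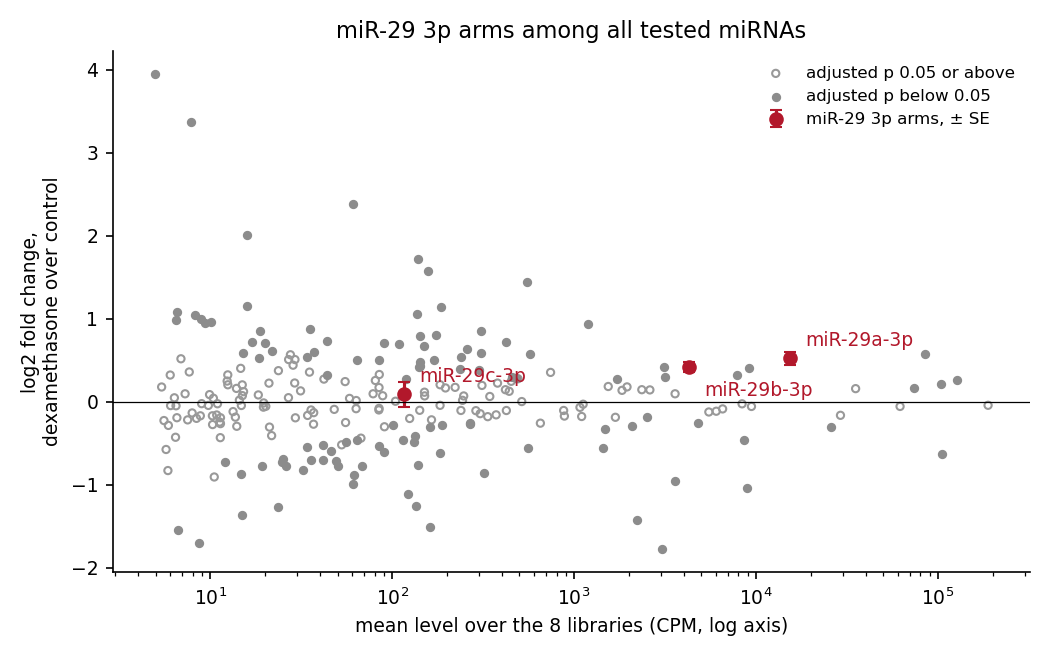
Log2 fold change (dexamethasone over control) of each of the 245 tested miRNAs against its mean level over the 8 libraries (CPM, log axis). Grey points are filled at an adjusted p below 0.05. The miR-29 3p arms are in red ± SE and all drawn filled, also miR-29c-3p, which did not pass. miR-29a-3p at 0.53 and miR-29b-3p at 0.43 lie at the abundant end and miR-29c-3p at 0.09 near the middle of the range.

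The spread between replicates was far above counting error for the abundant members and closer to it for miR-29c-3p. The coefficient of variation of miR-29a-3p was 11.9% in treated and 6.80% in control libraries, where its counts alone would give 0.625% and 0.594%. For miR-29b-3p it was 7.84% in treated and 4.48% in control libraries, against 1.19% and 1.10% from counting. For miR-29c-3p, read 126 to 228 times in treated and 239 to 269 times in control libraries, it was 20.2% and 15.4%, against 7.78% and 6.28% from counting.

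As a family the 3p arms took a larger share of the library after dexamethasone. Their summed share was 2.23%, 2.55%, 2.37% and 2.07% of counts in dexamethasone replicates 1 to 4, against 1.57%, 1.59%, 1.69% and 1.78% in control replicates 1 to 4. Counted as 1 row, the family was 1.41-fold higher (log2 fold change 0.50 ± 0.06, SE, n = 4 each). This sum does not depend on how reads were shared among members, provided each read was counted once, which the sources used here do not say. Of the mean gain of 6476 CPM, miR-29a-3p made up 81.7%. The rise is known only as one of share, since amounts per cell were not measured. Raw summed counts were 28460 to 38828 in treated and 30960 to 41537 in control libraries and overlapped. Every treated library was shallower, so these raw counts do not compare the groups.

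Within the family, miR-29a-3p made up 73.8 to 79.7% of 3p counts after dexamethasone and 75.9 to 78.5% in control. miR-29b-3p made up 19.7 to 25.8% after dexamethasone and 20.8 to 23.3% in control. miR-29c-3p made up 0.443 to 0.587% after dexamethasone and 0.575 to 0.785% in control. All 3 ranges overlapped between the groups.

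Whether members responded unequally was asked with ratios of their counts within each library, which need no scaling between libraries. The ratio of miR-29a-3p to miR-29c-3p was 149, 136, 164 and 167 in dexamethasone replicates 1 to 4, against 134, 107, 96.7 and 116 in control replicates 1 to 4. All 4 treated libraries were above all controls, but the lowest treated and the highest control value differed by less than the counting error of miR-29c-3p. On the log2 scale the difference was 0.45 ± 0.12 (SE, n = 4 each, two-sided exact permutation p = 0.0286, where 70 assignments allow no smaller p). Adjusted over the 3 ratios p was 0.0857, the smallest that a lone ratio can reach here, so this test could not pass on 1 ratio alone. limma on the 3 ratios, a test added after the data were seen that shares 1 estimate of spread among ratios with common members, gave an adjusted p of 0.0257. With replicate number as a block its adjusted p was 0.0995, which did not pass.

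The ratio of miR-29a-3p to miR-29b-3p was 4.02, 4.04, 3.96 and 2.86 in dexamethasone replicates 1 to 4, against 3.43, 3.33, 3.26 and 3.77 in control replicates 1 to 4. Dexamethasone replicate 4 was below all controls and the other 3 treated libraries were above them. The log2 difference was 0.10 ± 0.13 (SE, exact two-sided permutation p = 0.429, adjusted p = 0.429; 0.528 by limma), and 0.22 without dexamethasone replicate 4. The ratio of miR-29b-3p to miR-29c-3p was 37.1, 33.6, 41.5 and 58.2 in dexamethasone replicates 1 to 4, against 39.0, 32.1, 29.7 and 30.6 in control replicates 1 to 4. The groups overlapped, with replicate 4 the highest treated library. The log2 difference was 0.35 ± 0.19 (SE), with an adjusted p of 0.0497 by limma and 0.122 by limma with replicate number as a block. The exact two-sided permutation p was 0.114 (adjusted p = 0.171), and the difference was 0.19 without dexamethasone replicate 4. With 3 libraries against 4 the test cannot go below 0.0571, so the values without replicate 4 have no test.

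**Figure D3:**
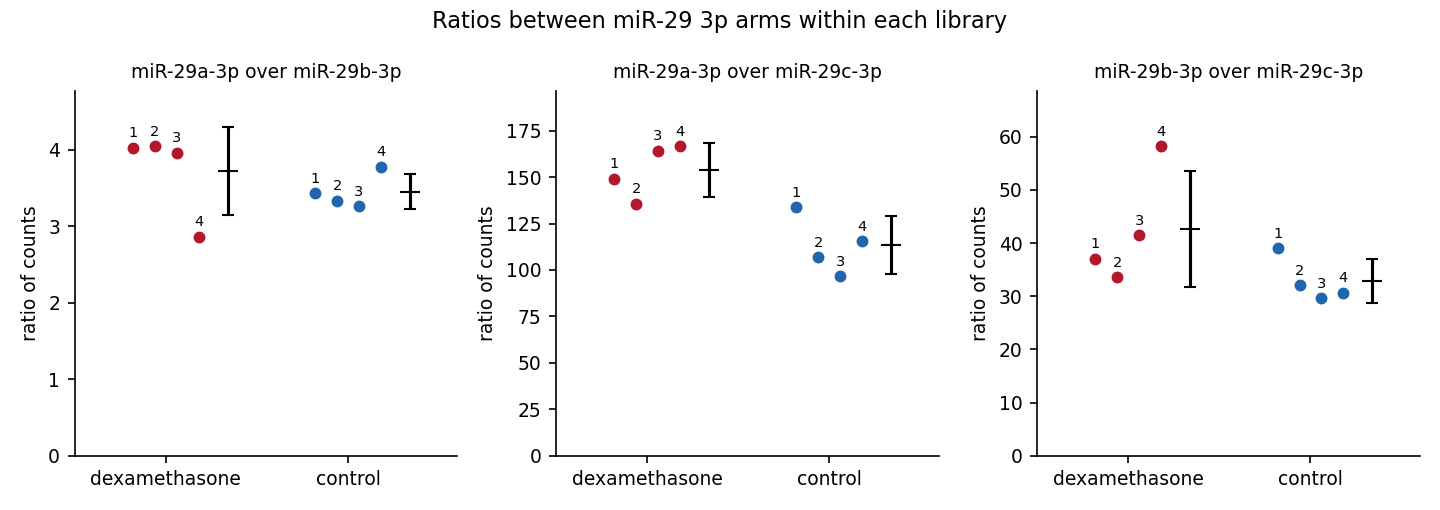
Ratio of the counts of 2 miR-29 3p arms within each library, for the 4 dexamethasone libraries (red) and the 4 control libraries (blue), with replicate numbers and mean ± SD as black bars. In the ratio of miR-29a-3p to miR-29b-3p dexamethasone replicate 4 lies at 2.86, below the other treated libraries at 3.96 to 4.04.

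The 5p arms, the partner strands that are mostly discarded when the duplex is loaded, were near the limit of detection and none passed the filter on low counts. rno-miR-29a-5p had 2, 3, 9 and 10 counts in dexamethasone replicates 1 to 4, against 7, 4, 0 and 4 in control replicates 1 to 4. Treated replicates 3 and 4 held 19 of its 24 treated counts, and the groups overlapped. Over the group this was 4.16 CPM (exact Poisson 95% interval 2.67 to 6.19) in dexamethasone and 1.66 CPM (0.928 to 2.73) in control libraries, intervals that cover counting error only. With no filter its log2 fold change was 1.33 ± 0.62 (SE, edgeR unadjusted p = 0.0416, adjusted p = 0.132 over 487 miRNAs).

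rno-miR-29c-5p had 0, 1, 4 and 1 counts in dexamethasone replicates 1 to 4, against 3, 2, 2 and 1 in control replicates 1 to 4, and the groups overlapped. rno-miR-29b-5p, the arm of Mir29b2, had 1, 0, 0 and 1 counts in dexamethasone replicates 1 to 4, against 0 in every control. The 0 of 9047779 control counts allows up to 0.332 CPM, so no difference was detectable at this depth.

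Counts pooled over the 4 libraries of a group were very unequal between the arms. Of all miR-29a counts, the 5p arm made up 0.0230% (exact binomial 95% interval 0.0147 to 0.0342%) after dexamethasone and 0.0130% (0.00729 to 0.0215%) in control. Of all miR-29c counts, it made up 0.862% (0.317 to 1.87%) after dexamethasone and 0.780% (0.337 to 1.53%) in control. In other words there were 4355 miR-29a-3p counts per 5p count in treated and 7676 in control libraries, but 115 and 127 for miR-29c. These intervals cover counting error only and not the spread between libraries, and in dexamethasone replicate 1 miR-29c-5p had 0 counts.

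The miRNAs whose profiles over the 8 libraries were most like a member were found by the root mean square difference of log2 CPM, each profile centred on its own mean. Such a profile holds the difference between the groups, so the closest miRNAs were bound to have log2 fold changes like the member's. Their fold changes and p-values are therefore description only. For miR-29a-3p these were miR-101a-3p (0.0856), miR-30d-5p (0.0864), miR-186-5p (0.105), miR-194-5p (0.110) and miR-30c-5p (0.120), where the median over 214 compared miRNAs was 0.373. All 5 were higher after dexamethasone, with log2 fold changes of 0.50 to 0.67 (edgeR adjusted p = 5.39e-05 to 0.00394). miR-29b-3p came 17th in that order and miR-29c-3p 61st.

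For miR-29b-3p the closest were miR-199a-5p (0.0717), miR-23b-3p (0.0902), miR-26a-5p (0.0933), miR-155-5p (0.09998) and miR-142-3p (0.103), where the median was 0.333. These 5 were higher too, with log2 fold changes of 0.29 to 0.54 (edgeR adjusted p = 1.51e-04 to 0.0113). miR-23b-3p and miR-155-5p did not pass after upper quartile scaling (edgeR adjusted p = 0.249 and 0.172), and miR-23b-3p also missed after thinning and without control replicate 1 or 2 (0.0538 to 0.0609). For miR-29c-3p the closest were miR-34a-5p (0.141), miR-130a-3p (0.142), miR-192-5p (0.144), miR-152-3p (0.164) and miR-411-5p (0.181), and none of these 5 passed (log2 fold changes of -0.10 to 0.26). miR-192-5p passed without dexamethasone replicate 4, at 0.37 (edgeR adjusted p = 0.0373).

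Arms of other miRNAs reported to repress collagen or matrix transcripts moved both ways. In each list every mature arm of a listed name counted as a member, also the less abundant arm. Of the 37 tested arms in this list, 11 (29.7%) were higher and 5 (13.5%) lower, where 24.9% and 21.2% of all tested miRNAs were. Their median log2 fold change was 0.18, beside 0.00 over all tested miRNAs. The list's 54 rows summed to 137915 to 157601 CPM after dexamethasone and 156022 to 161425 CPM in control, ranges that overlapped. miR-101b-3p, of a family known for acting on Ezh2, a histone methyltransferase, had 213 ± 11.5 CPM after dexamethasone and 65.8 ± 5.13 CPM in control (SD, n = 4; log2 fold change 1.72 ± 0.09, SE by edgeR, adjusted p = 2.99e-08). miR-30c-2-3p had 45.5 ± 5.74 CPM after dexamethasone and 25.2 ± 4.89 CPM in control (log2 fold change 0.88 ± 0.17, SE by edgeR, adjusted p = 0.00105). Both rose further than any miR-29 arm that passed the filter.

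In the same list, miR-148a-5p fell to 78.9 ± 7.72 CPM after dexamethasone, against 193 ± 33.1 CPM in control (SD, n = 4). Its log2 fold change was -1.26 ± 0.13 (SE by edgeR, adjusted p = 1.03e-05). The more abundant arm, miR-148a-3p, had 533 ± 94.7 CPM after dexamethasone and 450 ± 21.5 CPM in control (SD). That arm was not lower, with a log2 fold change of 0.28 ± 0.12 (SE by edgeR, adjusted p = 0.0781). miR-143-3p, a smooth muscle and stromal miRNA, fell to 22893 ± 2075 CPM after dexamethasone, against 28819.9 ± 605 CPM in control (log2 fold change -0.30 ± 0.07, SE by edgeR, adjusted p = 0.00525). let-7c-1-3p was at -0.72 ± 0.26 (edgeR log2 fold change and SE, with adjusted p = 0.0415). It missed the threshold in 9 of 18 alternatives, among them DESeq2, limma voom, no filter and the fits without dexamethasone replicate 2 or 4 or control replicate 2, 3 or 4 (adjusted p = 0.0519 to 0.104). The abundant let-7c-5p and let-7b-5p were at -0.05 ± 0.07 and -0.16 ± 0.08 (edgeR log2 fold change and SE, with adjusted p = 0.555 and 0.124). Both were lower when scaled by the upper quartile (adjusted p by edgeR of 0.0418 and 0.0097) and without dexamethasone replicate 1 (0.0434 and 7.04e-04), and let-7b-5p also with total counts, with a filter of 10 CPM and after thinning (0.0262 to 0.0446).

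Among miRNAs reported to favour fibrosis, 4 of 9 tested arms (44.4%) were higher and 0 lower, beside 24.9% and 21.2% of all tested miRNAs, with a median log2 fold change of 0.21. Both arms of miR-199a are among these 4 higher arms, so they are not 4 separate miRNAs. With upper quartile scaling 2 were higher and 1 lower, and 1 was also lower with RLE size factors and without dexamethasone replicate 2 or control replicate 3. The list's 15 rows summed to 201595 to 233135 CPM after dexamethasone and 167902 to 178673 CPM in control. miR-21-5p, known for its rise in fibrotic tissue, had 101442 ± 11629 CPM after dexamethasone and 68956 ± 3581 CPM in control (SD, n = 4; log2 fold change 0.58 ± 0.06, SE by edgeR, adjusted p = 1.29e-05). miR-199a-3p and miR-199a-5p were at 0.21 ± 0.03 and 0.32 ± 0.05 (edgeR log2 fold change and SE, with adjusted p = 3.44e-04 and 1.51e-04). miR-199a-3p did not pass after upper quartile scaling, at 0.06 (edgeR adjusted p = 0.415). miR-21-5p and both of these miR-199a arms are also among the mesenchymal rows counted as higher, so those counts are not separate from these.

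Bone-linked miRNAs, reported to act on osteoblast genes or on Wnt inhibitors, had 5 of 18 tested arms (27.8%) higher and 5 (27.8%) lower, near the 24.9% and 21.2% of all tested miRNAs, and a median log2 fold change of 0.14. The number higher was 2 without control replicate 1, 3 with upper quartile scaling and 8 with no filter. The list's 39 rows summed to 29026 to 31347 CPM after dexamethasone and 39417 to 41230 CPM in control, so the summed level was lower after treatment. Some names stand in this and the matrix list. miR-206-3p, a skeletal muscle miRNA, was at 1.58 ± 0.16 and miR-335 at 0.74 ± 0.28 (edgeR log2 fold change and SE, with adjusted p = 8.75e-06 and 0.0444). miR-335 did not pass under 12 of 18 other ways of processing, and was at 0.31 without dexamethasone replicate 1 (edgeR adjusted p = 0.163). miR-31a-5p and miR-31a-3p fell by 1.04 ± 0.06 and 0.88 ± 0.17 on the log2 scale (SE by edgeR, adjusted p = 5.06e-08 and 0.00105). miR-196a-5p, from the Hox clusters, fell by 0.45 ± 0.06 (SE by edgeR, adjusted p = 3.00e-05), and miR-27b-3p was at -0.11 ± 0.05 (edgeR log2 fold change and SE, with adjusted p = 0.0758). miR-27b-3p was lower with upper quartile scaling, with library sizes without the 10 most abundant miRNAs, with a filter of 10 CPM and after thinning (edgeR adjusted p = 0.00276 to 0.0366).

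**Figure D4:**
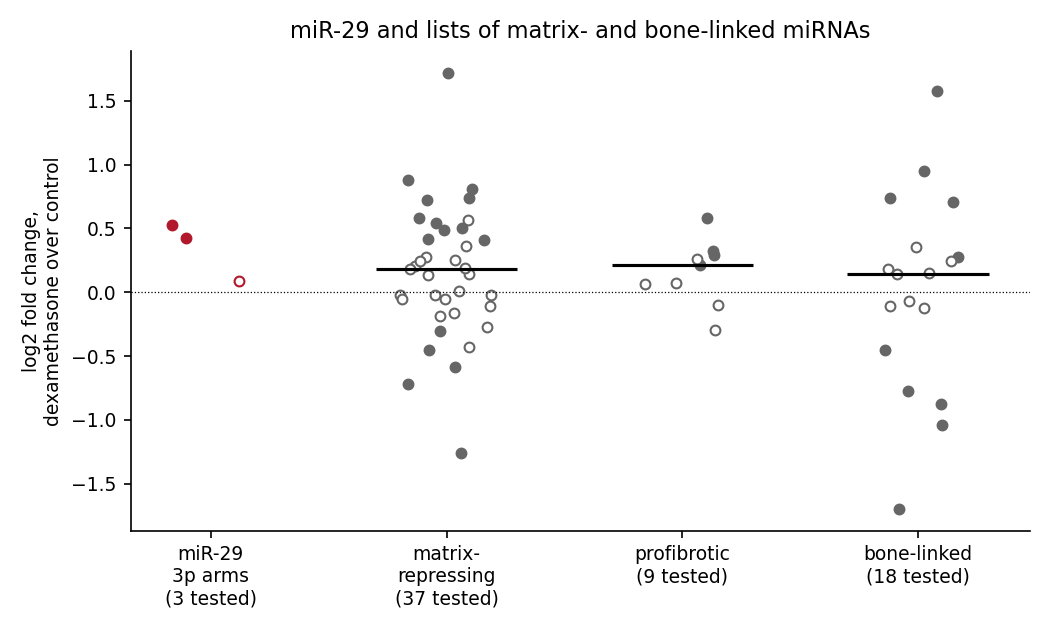
Log2 fold change (dexamethasone over control) of the tested miR-29 3p arms (red) and of the tested members of 3 lists (grey), with filled points at an adjusted p below 0.05 and black bars at each list's median. The matrix-repressing list spans both directions around a median of 0.18, and the bone-linked list around 0.14.

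Some marker miRNAs of other cell types also moved with treatment, counts to be read beside the 24.9% higher and 21.2% lower among all tested miRNAs. The 8 haematopoietic rows summed to 51.8 to 68.2 CPM after dexamethasone and 36.4 to 49.8 CPM in control, and 1 of 2 tested was higher, miR-142-3p at 0.54 ± 0.13 (edgeR log2 fold change and SE, with adjusted p = 0.00479). The 8 muscle rows summed to 244 to 344 CPM after dexamethasone and 81.4 to 111 CPM in control, and all 3 tested were higher. The 2 endothelial rows summed to 1163 to 1331 CPM after dexamethasone and 1790.1 to 2000.3 CPM in control, and miR-126a-3p fell by 0.55 ± 0.07 on the log2 scale (SE by edgeR, adjusted p = 3.54e-05). Epithelial rows summed to 10.2 to 22.3 CPM after dexamethasone and 12.1 to 17.4 CPM in control, where the tested miR-203a-3p was at 0.36 ± 0.38 (edgeR log2 fold change and SE, with adjusted p = 0.483). Neural rows summed to 456 to 540.5 CPM after dexamethasone and 468 to 521 CPM in control, with 1 of 3 tested lower, and miR-128-3p was at 0.23 ± 0.10 (edgeR log2 fold change and SE, with adjusted p = 0.0781, and 0.00585 without dexamethasone replicate 4). No marker row was at 0 in every library, but neither was any other of the 487 rows. Of the listed marker names, 2 muscle, 2 neural and 1 endothelial had no row at all. The part of these cell types in the miR-29 levels was not tested.

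**Figure D5:**
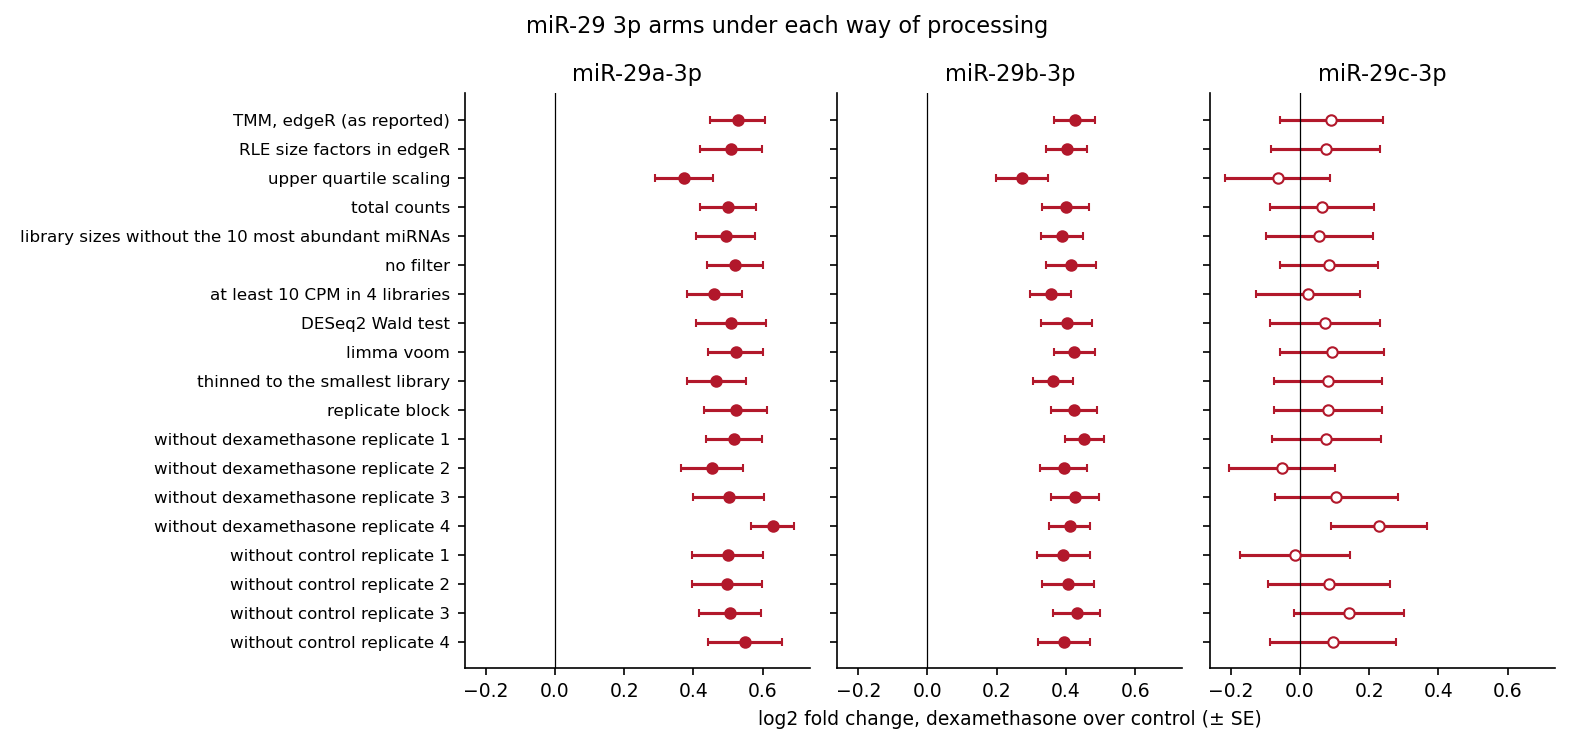
Log2 fold change (dexamethasone over control, ± SE) of each miR-29 3p arm under TMM with edgeR and under each other way of processing, with filled points at an adjusted p below 0.05. miR-29a-3p lies between 0.37 and 0.63 and miR-29b-3p between 0.27 and 0.45, all filled, while miR-29c-3p lies between -0.065 and 0.23, all open.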

How the data were processed

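Small RNA counts of 8 samples, 4 given dexamethasone and 4 control, were grouped by their titles. Per the labels' protocols a Qiagen miRNA kit gave the RNA and a VAHTS total RNA kit the libraries. Per the submitters' processing notes, Bowtie 1.0 and the build mRatBN7.2 were used. No counter, miRNA annotation or strand setting is named. A single deposited table holds whole-number counts per mature miRNA and sample. The authors' CPM columns divide each count by the column total. The deposited log2 fold change and p-values were used only where the authors' table is named.

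For all 487 miRNAs, edgeR 4.0.16 (R 4.3.3) fitted the counts on group alone after filterByExpr and TMM, which left 245 for the quasi-likelihood test with Benjamini-Hochberg adjustment. Dividing a log2 fold change's size by the square root of F gave its SE. Libraries within a group differed beyond sampling noise (chi-square per degree of freedom 7.56 to 48.6). Ratios were tested with scipy 1.17.1. Sequences came from RefSeq, where 443 of 487 rows matched. The scripts were tested on simulated data.

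Alternatives were RLE, upper quartile and total count scaling, library sizes without the 10 most abundant miRNAs, no filter, a filter of 10 CPM in 4 libraries, DESeq2 1.42.0, limma 3.58.1 voom, thinning, a replicate block, summing miR-29a-3p with miR-29c-3p, leaving out each replicate and, added after the data were seen, limma on the ratios. Members and lists were chosen with earlier results of these data known. Named beyond the members were, per list of matrix-repressing, profibrotic and bone-linked miRNAs, the 3 most abundant and the 2 largest changes each way with at least 10 CPM, the 5 profiles most like each 3p arm, and the most abundant marker per other cell type. The family sum has no p, since its members were chosen with results known. The table held 0 columns of per-sample values that were not used.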

Additional observations from a re-analysis of the deposited data

Results flagged for a closer look

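The ratio of miR-29a-3p to miR-29b-3p was 2.86 in dexamethasone replicate 4, far from the other 3 treated libraries at 3.96 to 4.04. Its gap to the nearest of them was 0.929 of the group's whole range, above Dixon's 95% critical value for 4 libraries. In that library miR-29a-3p and miR-29c-3p were the lowest and miR-29b-3p the highest of the treated group. Across 20 groups of values checked, this was the 1 found, and chance gives about 5% of groups. Its cause was not tested.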

How the results depend on the processing

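miR-29a-3p and miR-29b-3p were higher at an adjusted p below 0.05 in the reported fit and all 19 alternatives, with log2 fold changes of 0.37 to 0.63 and 0.27 to 0.45. Summing miR-29a-3p with miR-29c-3p gave 0.52 (edgeR adjusted p = 1.55e-04). The family sum ran from 0.35 to 0.58. miR-29c-3p passed in none of its 18 alternatives. It was at -0.065 with upper quartile scaling, and from -0.053 to 0.23 when 1 replicate was left out (below 0 without dexamethasone replicate 2 or control replicate 1). Treated and control libraries with the same number did not deviate together (correlations of -0.21 to 0.08), so the numbers were not taken to pair samples. With the replicate block miR-29a-3p was at 0.52 and miR-29b-3p at 0.42 (edgeR adjusted p = 0.00187 and 9.63e-04), and 52 miRNAs were higher and 45 lower, against 61 and 52. Over all alternatives 41 to 70 were higher and 45 to 71 lower, and upper quartile scaling gave 41 and 71. Left-out replicates put the log2 difference of the ratio of miR-29a-3p to miR-29c-3p at 0.38 to 0.53. They put that of miR-29a-3p to miR-29b-3p at 0.05 to 0.22 and that of miR-29b-3p to miR-29c-3p at 0.19 to 0.45, and thinning put the first at 0.39 (exact permutation adjusted p = 0.171). By limma on the ratios, added after the data were seen, the log2 difference of miR-29a-3p over miR-29c-3p (0.45) and of miR-29b-3p over miR-29c-3p (0.35) passed (adjusted p = 0.0257 and 0.0497), and with the replicate block neither did (0.0995 and 0.122). The 3p to 5p ratio had a test in 0 hairpins, as no 5p arm passed the filter, and in 3 with every 5p arm admitted (exact permutation adjusted p = 0.171 to 0.857). Among list counts, profibrotic arms lower were 0 as reported but 1 with RLE size factors or upper quartile scaling and 0 to 1 when 1 replicate was left out (1 without dexamethasone replicate 2 or control replicate 3), and arms higher were 2 with upper quartile scaling. Bone-linked arms higher were 5 as reported, 3 with upper quartile scaling, 8 with no filter and 2 to 7 when 1 replicate was left out (2 without control replicate 1). For the 33 other named miRNAs, 539 values kept direction and side of the threshold, 27 no longer passed, 13 newly passed and 14 changed sign. Those that changed sign never passed in either fit. miR-130a-3p was at 0.02 as reported and at -6.25e-05 with RLE size factors, -0.13 with upper quartile scaling, -0.0080 with total counts, -0.015 without the 10 most abundant miRNAs in library sizes, -0.049 with the 10 CPM filter, -4.73e-06 with DESeq2, -0.065 after thinning and -0.044 to 0.12 when 1 replicate was left out. miR-34a-5p was at -0.087 with upper quartile scaling and -0.0025 with the 10 CPM filter. Left-out replicates put miR-152-3p at -0.068 to 0.048 and miR-411-5p at -0.24 to 0.11. The causes were not tested. Depth limits miR-29c-3p and the 5p arms most.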

Other observations

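The last 6 bases of miR-29b-3p, AGUGUU, are known from human cells as a nuclear import element and are absent from miR-29a-3p and miR-29c-3p. The letters AGUGUU were searched on the given strand anywhere in the mature sequence, and were found in 6 of the 443 deposited rows with a RefSeq sequence (1.35%). Of those 6 rows, 3 had a mean of at least 10 CPM, shown here with the motif in capitals.
rno-miR-29b-3p: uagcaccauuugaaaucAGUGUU
rno-miR-199a-5p: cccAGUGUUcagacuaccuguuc
rno-miR-142-3p: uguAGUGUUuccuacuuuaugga
The last 2 were also among the 5 miRNAs whose profile over the 8 libraries was most like that of miR-29b-3p. miR-199a-5p had 8683 CPM after dexamethasone and 7074 CPM in control, and miR-142-3p had 39.8 CPM after dexamethasone and 27.8 CPM in control. They hold the letters near the 5′ end and not at the 3′ end. The 3 other rows with the motif, miR-141-5p, miR-3589 and miR-92b-5p, had at most 3.03 CPM in any library. This overlap was noticed after the values were seen and was not tested.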
